A study of Mus musculus with 18 samples.

Results

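The comparison covered here is between oocytes of secondary follicles (SF) that lack Sall4 and SF oocytes labelled wild type. Sall4 encodes a zinc finger transcription factor. The set holds 12 of the series' 18 libraries, 5 SF knockout and 7 SF wild-type oocytes, chosen by their labels. The other 6 libraries are early antral follicle (EAF) oocytes, 4 wild type and 2 knockout, and were used only where SF values were carried to a later stage. Each library is the reduced representation bisulfite sequencing of 1 oocyte, a method built on MspI digestion that samples CpG-rich sequence most. Per the labels' protocols, the females were Sall4fl/fl;Zp3-Cre or, without Cre, Sall4fl/fl. The floxed alleles are thus named for both groups, and the Cre, driven by an oocyte promoter that is active during growth, is the difference between them. Ages of P12.5 and P17.5 are given for all samples together, so the age of an SF oocyte is not known. No animal is named for any oocyte. Each group therefore counts as 1 sample, SDs describe the spread among oocytes, no test was run, and genotype cannot be told apart from animal or litter. Neither the deletion of Sall4 nor the identity of the cells can be checked in methylation counts.

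Mouse oocytes start growth with little DNA methylation and acquire it de novo as they grow. The methyltransferase DNMT3A and its cofactor DNMT3L place it mainly over transcribed gene bodies, while most CpG island promoters stay free of it. Methylation is therefore expected to be gained while an oocyte grows, and a lower level in a growing oocyte can mean methylation lost or not yet placed. The words "lower" and "higher" below describe levels only.

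Both genotypes were scored within the same set of autosomal CpGs, of which each oocyte read a part. These were the 21502 CpGs with at least 5 reads in at least 3 oocytes of each SF group, of 1160411 autosomal CpGs listed in any of the 18 libraries. SF knockout libraries were deeper. Reads summed over CpGs ran from 3688890 to 6518646 in them and from 464501 to 3665846 in SF wild type, and the median read count at a shared CpG was 24 to 43 against 10 to 24. An oocyte was read at 18220 to 20208 of the shared CpGs in the knockout and at 5299 to 19259 in wild type. The differences by class and the counts of calls were also computed from 5 reads drawn at random per CpG and oocyte. Values given without knockout replicate 1 are on the same shared CpGs, and choosing CpGs again without it can give another value, as stated where it does.

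The shared CpGs were not an even sample of the genome. Chromosomes 10 to 14 carried 26.4% of all listed autosomal CpGs and 51.9% of the shared ones. Many shared CpGs lay in stretches whose CpG-to-CpG distances recur at many places, as copies of a repeated element would. A run of 5 neighbouring CpGs was called recurrent where the same 4 distances, in either orientation, were found at 10 or more places and at least 10 times more often than the frequencies of single distances give. By this rule 16233 shared CpGs (75.5%) were of recurrent spacing, against 14.5% of all listed autosomal CpGs. Another 4125 (19.2%) lay in such runs without recurrence and are called distinct, and 1144 (5.32%) had too few close neighbours to tell. Chromosomes 10 to 14 held 58.3% of the recurrent CpGs and 20.4% of the distinct ones. How reads that match several copies were placed is not given in the sources used here. A level at a recurrent CpG may therefore be shared by copies, and results are given for both kinds.

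**Figure D1:**
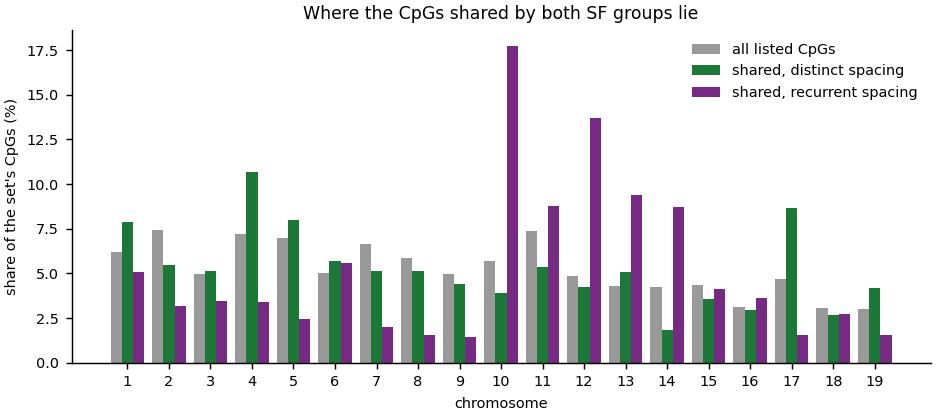
Share of each set's CpGs on each autosome (bars, %), for all listed CpGs, shared CpGs of distinct spacing and shared CpGs of recurrent spacing. Recurrent CpGs are concentrated on chromosomes 10 to 14 (58.3% of them), while distinct CpGs are not (20.4%).

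Sequences with these spacings show what recurrence means at the level of bases. RefSeq promoter sequences of GRCm38.p6 (250 bases before to 50 after a start) were searched for the 10 recurrent spacings with the most shared places, called G1 to G10 in that order. The 2 pairs below share a spacing, in the first pair only up to the last CpG, and nearly all of the bases compared. They were found by spacing alone, and the methylation of these particular copies was not measured. CpGs are in capitals. Gm36816 on chromosome 6 has spacing G2 and A230004M16Rik on chromosome 11 has G8, whose distances are the same as those of G2 up to the last CpG. Gm30645 on chromosome 7 and Gm5636 on chromosome X have G9.
Gm36816, G2: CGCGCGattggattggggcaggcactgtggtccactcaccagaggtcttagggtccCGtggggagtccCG
A230004M16Rik, G8: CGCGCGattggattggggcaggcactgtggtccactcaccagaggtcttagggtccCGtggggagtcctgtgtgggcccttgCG
Gm30645, G9: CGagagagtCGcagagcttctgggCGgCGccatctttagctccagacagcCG
Gm5636, G9: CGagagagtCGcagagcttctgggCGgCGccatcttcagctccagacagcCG
The first pair was identical at 98.6% of 70 bases and the second at 98.1% of 52 bases. Gm30645 and Gm5636 also carry spacing G6, and there they were identical at 100% of 62 bases.

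Over all shared CpGs the genotypes did not separate. The mean level was 22.8% ± 6.33 (SD, n = 7 oocytes) in SF wild type, from 11.1% to 31.1%. It was 22.7% ± 8.14 (SD, n = 5 oocytes) in the SF knockout, where replicate 1 stood at 37.1% and the other 4 at 17.1% to 20.8%. By these means, each over the shared CpGs that the oocyte read, SF knockout replicate 1 was above every wild-type oocyte. The other 4 knockout oocytes lay inside the wild-type range. Levels were also set against the mean of the other wild-type oocytes at the same CpGs. Wild-type oocytes then stood at -6.11 to 6.02 points and knockout replicate 1 at 12.8 points. Knockout replicate 3 stood at -7.72 points, below every wild-type oocyte, and replicates 2, 4 and 5 at -4.95, -3.63 and -5.03 points. The mean over CpGs of knockout minus wild type was -1.65 points, and -5.32 points without replicate 1. Its sign was negative on 16 of 19 autosomes, and on 19 of 19 without replicate 1.

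At distinct CpGs high in wild type, every knockout oocyte stood below 6 of the 7 wild-type oocytes. High meant a wild-type mean of at least 80%. So that the choice of CpGs did not raise the wild-type values, each wild-type oocyte was scored at CpGs classed by the other wild-type oocytes. The 75 distinct CpGs classed by all wild-type oocytes lay in 45 separate stretches, and a knockout oocyte was scored at 39 to 67 of them. A wild-type oocyte was scored at 24 to 80 CpGs, a set that differs from oocyte to oocyte. On these sets the levels of wild-type replicates 1 to 7 were 74.4%, 59.9%, 31.8%, 69.8%, 67.0%, 83.9% and 81.0%. Those of knockout replicates 1 to 5 were 35.2%, 27.1%, 38.1%, 15.6% and 30.6%. Only wild-type replicate 3, the shallowest library with 24 CpGs read in the class, fell within the knockout range, and knockout replicate 1 sat among the other knockout oocytes. The means were 66.8% ± 17.48 (SD, n = 7 oocytes) and 29.3% ± 8.75 (SD, n = 5 oocytes), a difference of -37.5 points, and -39.0 points without replicate 1. At 5 reads per CpG the difference was -34.7 points. It fell to -21.0 points without wild-type replicate 1 and to -23.2 points without wild-type replicate 4, with CpGs chosen again each time.

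At recurrent CpGs of the high class the gap was narrower and replicate 1 was not among the other knockout oocytes. Wild-type oocytes ran from 65.5% to 85.2% and averaged 76.2% ± 6.31 (SD, n = 7 oocytes). Knockout replicates 2 to 5 ran from 58.0% to 69.1%, and replicate 1 was at 78.6%. The difference was -9.40 points, and -12.3 points without replicate 1. At high CpGs with too few neighbours to tell their spacing the difference was -38.1 points. All wild-type oocytes together classed 20 such CpGs, and a wild-type oocyte was scored at 6 to 29 classed by the others. For high CpGs of any spacing these numbers were 539 and 83 to 630. The difference there was -11.4 points, or -13.9 points without replicate 1, and -10.4 points at 5 reads per CpG. Without wild-type replicate 1 this difference was -6.12 points, and with at least 4 oocytes of each group -4.36 points.

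CpGs low in SF wild type, those with an SF wild-type mean of at most 20%, gave no common gain in the knockout with at least 3 oocytes of each group. At distinct CpGs, a low class set by EAF wild type, given below, did give higher knockout levels. Wild-type oocytes, each again scored at distinct CpGs classed by the others, averaged 2.41% ± 1.20 (SD, n = 7 oocytes), from 0.956% to 4.68%. At the 3678 distinct CpGs classed by all wild-type oocytes, the knockout averaged 2.78% ± 0.980 (SD, n = 5 oocytes). Its oocytes ran from 2.00% to 4.48%, all inside the wild-type range. The difference was 0.37 points, and without replicate 1 -0.06 points on the same CpGs and 0.52 points on CpGs chosen again. It depended on the oocytes required. With at least 4 of each group, distinct low CpGs stood at 1.17% to 3.34% in wild type and 3.19% to 6.30% in the knockout. The difference was then 2.71 points, or 2.40 without replicate 1. On CpGs read in all 12 SF oocytes it was 5.36 points, or 5.04 without replicate 1. With at least 2 oocytes of each group it was -0.20 points. At recurrent low CpGs, 7677 when classed by all wild-type oocytes, wild-type oocytes scored in the same way ran from 6.25% to 16.1%. Knockout replicates 2 to 5 ran from 8.42% to 11.1%. Replicate 1 stood at 28.1%, so the higher knockout mean there (a difference of 2.08 points, and -1.52 points without it) came from 1 oocyte.

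**Figure D2:**
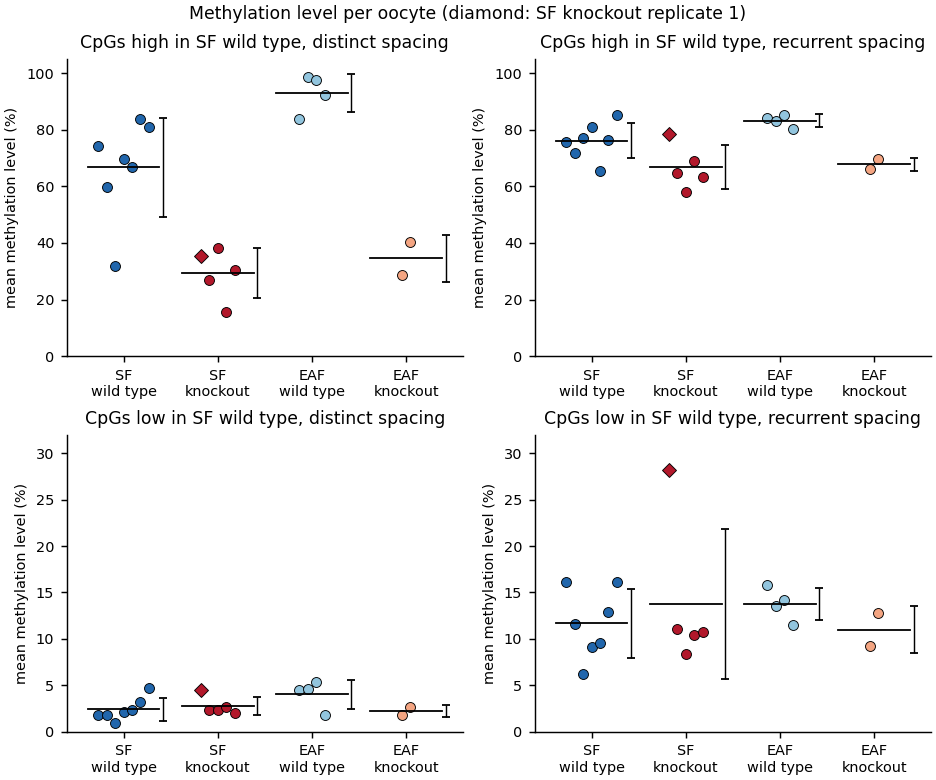
Mean methylation level (%) of each oocyte at shared CpGs high (top) or low (bottom) in SF wild type, for distinct (left) and recurrent (right) spacing; points are oocytes, lines are group means, bars at the side are 1 SD, and the diamond is SF knockout replicate 1. At distinct high CpGs the 5 SF knockout oocytes lie at 15.6% to 38.1% and 6 of 7 SF wild-type oocytes above them; replicate 1 stands out only where spacing is recurrent or levels are low.

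At distinct high CpGs a larger share stood at 10% methylation or less in the knockout. Intermediate levels were the least common in both genotypes. In the knockout, 62.6% ± 10.2 (SD, n = 5 oocytes) of the CpGs read in an oocyte were at 10% methylation or less, and 21.0% ± 6.15 at 90% or more. In wild type these shares were 29.1% ± 18.5 and 60.6% ± 18.1 (SD, n = 7 oocytes). CpGs between these limits made up 16.4% ± 5.75 in the knockout and 10.3% ± 6.51 in wild type. Recurrent high CpGs were mostly intermediate in both genotypes, 63.2% ± 3.54 in the knockout and 53.4% ± 8.95 in wild type. Libraries were made from individual oocytes and PCR copies are not independent molecules, so few molecules may lie behind a value. Levels near either limit may then be common in any genotype, while a recurrent level may be shared by copies. Whether the shares at either kind of CpG follow from this was not tested.

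The classes can also be set without any SF oocyte, from the mean of at least 2 EAF wild-type oocytes. At the 27 distinct CpGs that were at least 80% methylated there, SF wild type averaged 74.9% ± 21.8 (SD, n = 7 oocytes) and the SF knockout 38.0% ± 16.6 (SD, n = 5 oocytes), with replicate 1 at 41.5%. Ranges overlapped, 34.0% to 100% against 21.3% to 61.9%. At the 663 recurrent CpGs of that class the means were 71.0% and 62.2%, with replicate 1 at 76.2%. At the 901 distinct CpGs at or below 20% in EAF wild type, SF knockout oocytes ran from 3.99% to 6.45% and SF wild-type oocytes from 1.40% to 3.91%. These ranges did not overlap, and the difference was 2.53 points, or 2.20 points without replicate 1.

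The EAF oocytes themselves were not used to choose the SF classes. At the distinct CpGs high in SF wild type, the 4 EAF wild-type oocytes stood at 83.7% to 98.5% and the 2 EAF knockout oocytes at 28.7% and 40.5%, over 12 to 28 CpGs each. The EAF knockout values therefore fell close to those of the SF knockout, and the EAF wild-type values above most SF wild-type ones.

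Requiring fewer oocytes gave many more distinct CpGs, and the same direction. With at least 2 oocytes of each group, 997 distinct CpGs were high in wild type, and a knockout oocyte was scored at 373 to 535 of them. A wild-type oocyte was scored only at the 45 to 230 CpGs that at least 2 other wild-type oocytes classed as high. The genotypes were thus scored on different CpGs. On these sets wild-type oocytes stood at 47.7% to 89.2% and knockout oocytes at 10.8% to 32.3%, with replicate 1 the highest of the 5. The difference was -52.2 points. With at least 4 oocytes of each group only 7 such CpGs were left, and a wild-type oocyte was scored at 4 to 9 CpGs classed by the others. The ranges were 50% to 100% and 41.1% to 82.5%, with a difference of -16.9 points.

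CpG by CpG, large differences were mostly downward. Of the 21502 shared CpGs, 273 (1.27%) were at least 50 points lower in the knockout and 68 (0.316%) at least 50 points higher. At 5 reads per CpG the counts were 307 and 91. Without replicate 1 they were 363 (1.69%) and 103 (0.479%) on the same CpGs, but 189 and 45 when 3 of the other 4 knockout oocytes had to be read. Among distinct CpGs, 122 (2.96%) in 54 stretches were lower and 12 (0.291%) in 11 stretches were higher, or 132 (3.2%) and 33 (0.8%) without replicate 1 on the same CpGs. When 3 of the other 4 knockout oocytes had to be read, 40 were lower and 4 higher. A fall of that size was open to the 204 distinct CpGs with a wild-type mean of at least 50%, and a rise to the 3933 with one of at most 50%. At 47 of the 122 lower and 3 of the 12 higher distinct CpGs the oocyte ranges did not overlap. Over all shared CpGs, oocyte ranges were lower in the knockout without overlap at 236 (1.1%) and higher at 113 (0.526%), or at 1008 (4.69%) and 142 (0.66%) without replicate 1. For comparison, 48 of all distinct CpGs (1.16%) had lower knockout ranges without overlap and 20 (0.485%) had higher ones. Among recurrent CpGs, 108 (0.665%) were lower and 50 (0.308%) higher.

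**Figure D3:**
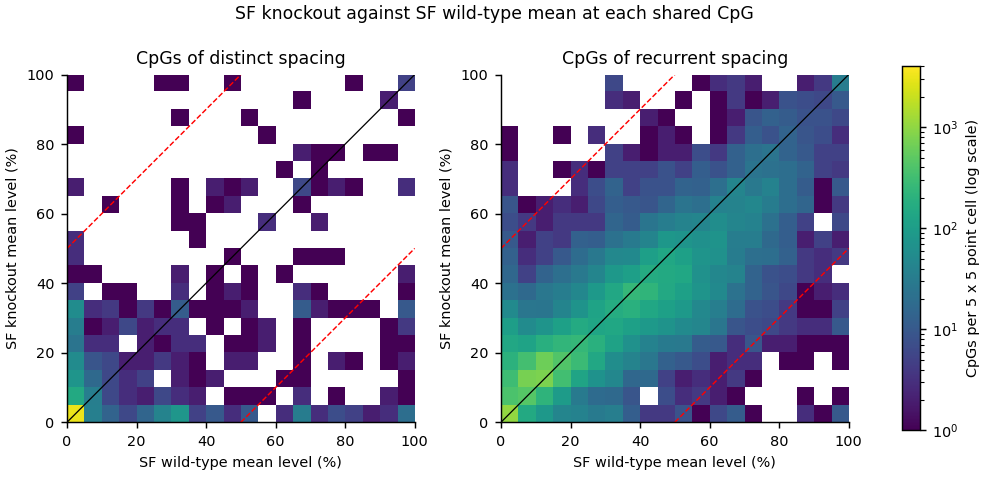
SF knockout mean against SF wild-type mean (%) at shared CpGs of distinct (left) and recurrent (right) spacing; colour gives the number of CpGs per cell on a log scale, the black line marks equal means and the red dashed lines differences of 50 points. Distinct CpGs pile up along the bottom edge, where the knockout mean is near 0 at wild-type means up to 100%, while recurrent CpGs follow the diagonal.

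The CpGs lower in the SF knockout were also lower in EAF knockout oocytes, which took no part in choosing them. At the 122 distinct ones the EAF wild-type oocytes averaged 86.7% ± 6.11 (SD, n = 4 oocytes) over 13 to 28 CpGs each, and the EAF knockout oocytes stood at 7.82% and 19.0%. Of the 24 CpGs read in both EAF genotypes, 20 were lower in the knockout, and the mean difference over the 24 was -56.0 points. EAF knockout levels were lower in general: of the 61 distinct CpGs with an SF wild-type mean of at least 50% that both EAF genotypes read, these CpGs included, 43 (70.5%) were lower, by a mean difference of -29.4 points. Over all 1573 distinct CpGs read in both, 18.6% were lower and the mean difference was -2.96 points, and over all 16965 shared ones 61.2% and -6.52 points. At CpGs higher in the SF knockout the mean EAF difference was small. Over the 46 of the 68 that both EAF genotypes read, it was -1.51 points, and 19 were lower. Of the 103 called higher without replicate 1, both EAF genotypes read 61. There the mean was 3.76 points, and 21 were lower. Both means lay above the -6.52 points of all shared CpGs.

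Among distinct CpGs, the share lower by 50 points or more was larger where fewer CpGs were listed nearby. CpG density was the number of listed CpGs within 100 bp on either side, the CpG itself included, so unlisted CpGs do not count. Of the 122 lower distinct CpGs, 19 had 1 to 4, 77 had 5 to 9, 24 had 10 to 19 and 2 had 20 or more. Wild-type means also fell with density, and a fall of 50 points needs a wild-type mean of at least 50%. Distinct CpGs with 1 to 4 had a wild-type mean of 23.2% and a knockout mean of 13.5%, and 12.2% of those 156 CpGs were lower by 50 points or more. With 5 to 9 the means were 18.3% and 9.69%, and 9.63% of 800 were lower. With 10 to 19 the means were 3.13% and 3.05%, and with 20 or more 1.26% and 1.42%, with 1.26% and 0.159% of CpGs lower. Distinct CpGs in CpG-dense sequence were thus nearly free of methylation in both genotypes. Recurrent CpGs were not, with means of 34.3% and 31.1% at 10 to 19. Their differences showed no such order, at 1.96, 1.27, -3.19 and 0.63 points from the lowest to the highest density.

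Runs of at least 5 shared CpGs no more than 100 bp apart were joined into 1954 regions, scored in an oocyte with at least 3 of their CpGs. In the knockout 44 regions (2.25%) were lower by 30 points or more and 17 (0.87%) higher. Of the 275 regions made only of distinct CpGs, 21 (7.64%) were lower and 2 (0.727%) higher, and in 9 of the 21 the oocyte ranges did not overlap. Over all 275, ranges without overlap were found in 10 regions (3.64%) on the lower side and in 7 (2.55%) on the higher side, and most of these regions were read in few oocytes. Of the 1580 recurrent regions, 19 (1.2%) were lower and 13 (0.823%) higher. Among the 17 lower regions that both EAF genotypes read, 15 were lower in EAF knockout too, with means of 64.5% and 26.0%. Of all 1596 regions that both read, 66.7% were lower in EAF knockout.

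The distinct regions are described here one by one because they are places a reader can look up. They were chosen after the values were seen, and the first 8 are all those on chromosomes other than 18 that were lower by 30 points or more without overlap, so the lack of overlap is part of the choice. Coordinates are mm9, and the nearest promoter is the nearest among those that could be placed on mm9 by their CpG spacing (5931 of 32851), so a closer gene may exist. Whether a region is exonic or intronic was not analysed here. The widest gap was at chr10:24953145-24953258, with 6 CpGs. Wild-type replicates 1, 2, 3, 4 and 6 stood at 99.9%, 83.3%, 33.3%, 82.3% and 100%, and knockout replicates 1, 3 and 4 at 1.74%, 13.0% and 0%. All 3 knockout oocytes were below all 5 wild-type ones, a difference of -74.9 points.

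At chr7:133421350-133421456, 77388 bp from the promoter of Xpo6, which encodes a nuclear export receptor, wild-type replicates 1, 3, 5 and 6 stood at 83.3%, 50%, 50% and 88.9%. Knockout replicates 1, 3 and 5 were all at 0%. At chr12:119114069-119114185, 31793 bp from Cdca7l, wild-type replicates 1, 2 and 6 stood at 66.7%, 55.6% and 88.9%. Knockout replicates 1, 2 and 5 stood there at 0%, 0% and 11.1%, again without overlap.

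At chr5:108259220-108259335, 38790 bp from Evi5, wild-type replicates 1, 2 and 4 stood at 85.7%, 55.6% and 57.1%, and knockout replicates 1, 2 and 5 at 0%, 0% and 14.3%. At chr6:50158659-50158808, 53035 bp from Gsdme, which encodes a pore-forming gasdermin, wild-type replicates 1, 2 and 5 stood at 100%, 80% and 40%, and knockout replicates 1, 3 and 5 at 0%, 20% and 20%. The single EAF wild-type oocyte that read it was at 100% and the single EAF knockout oocyte at 0%. Both regions were without overlap in SF oocytes.

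The remaining 3 without overlap had smaller differences. At chr16:18224518-18224579, 10681 bp from Zdhhc8, which encodes a palmitoyltransferase, wild-type replicates 1, 2 and 5 stood at 38.7%, 59.6% and 20%. Knockout replicates 2 to 5 stood at 0%, 0%, 1.25% and 0%. At chr3:88349047-88349122, 13216 bp from Mex3a, an RNA-binding protein gene, wild-type replicates 2, 3, 4 and 5 stood at 33.3%, 16.7%, 34.1% and 62.3%, and knockout replicates 1, 4 and 5 at 7.42%, 0% and 0%. At chr4:126297044-126297173, 62884 bp from Clspn, which encodes a checkpoint protein, wild-type replicates 2, 4 and 5 stood at 42.9%, 19.8% and 42.9%, and knockout replicates 1, 2 and 4 at 0%.

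The other 12 lower distinct regions had overlapping ranges. At chr4:57073365-57073503 the difference was -62.9 points, with wild-type replicates 2, 6 and 7 at 28.6%, 88.6% and 100% and knockout replicates 1, 4 and 5 at 0%, 0% and 28.6%. At chr6:113439534-113439634, 12228 bp from Prrt3, wild-type replicates 2, 4 and 6 stood at 0%, 80.1% and 60%, and knockout replicates 1, 2, 3 and 5 at 0%, 9.85%, 0% and 17.4%. At chr15:85794770-85794887 wild-type replicates 1, 2, 3, 4 and 7 stood at 66.7%, 33.3%, 0%, 50.1% and 100%, and knockout replicates 1, 2 and 4 at 0%. In these 3 regions the knockout values were at 28.6% or below and the wild-type values spread over most of the scale.

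Knockout replicate 1 was high in 3 of the 12 overlapping regions where the other knockout oocytes were low. It stood at 92.7% at chr8:123091412-123091533, against 0% and 10.3% in replicates 2 and 5 and 80% to 100% in wild type. It stood at 85.2% at chr13:45663606-45663710, against 14.3% and 0% in replicates 3 and 4. At chr19:10973503-10973582, 3821 bp from Prpf19, a splicing factor gene, it stood at 79.8% against 0% and 20% in replicates 2 and 5. In both distinct regions called higher, chr11:78509349-78509451 and chr15:101749572-101749625, replicate 1 alone was at 100% and every other SF oocyte that read them at 0%.

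Wild-type oocytes also differed among themselves. At chr10:80131690-80131799, 7294 bp from Mknk2, a kinase gene, replicates 1 and 6 stood at 93.3% and 80% and replicates 4 and 5 at 0%. Knockout replicates 1, 2, 3 and 5 stood there at 20%, 0%, 3.64% and 0%, so 4 oocytes of each genotype were read and their ranges overlapped. At chr3:96459446-96459558 the lower call rested on wild-type replicate 7 alone, at 100%. Wild-type replicates 1 and 2 and knockout replicates 1, 3 and 5 stood there at 0%. At chr3:79438518-79438604 wild-type replicates 1, 2, 5 and 7 stood at 20%, 20%, 0% and 100%, and knockout replicates 1, 3 and 5 at 0%. At chr17:52658874-52658951 wild-type replicates 1, 4 and 6 stood at 80%, 0% and 100%, and knockout replicates 1, 3 and 4 at 34.8%, 17.9% and 0%. At chr17:39983630-39983808 knockout replicate 3 stood at 68.1%, inside the wild-type range of 23.9% to 74.8%. At chr9:12136087-12136182 wild type ran from 40% to 80% and the knockout from 0% to 60%. There EAF knockout was above EAF wild type (80% against 70.9%). Over the 20 lower distinct regions outside chromosome 18, 57 of 65 knockout values and 13 of 71 wild-type values were at 20% or below, and 5 and 46 were at 50% or above. A value rested on 25 to 1083 summed reads in the knockout and on 25 to 1414 in wild type. The 37 knockout values of exactly 0 rested on 25 to 1083 reads. These would allow a level of up to 0.277% to 12% if every read were an independent molecule. PCR copies are not, so the true limits are wider by an amount that was not measured.

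**Figure D4:**
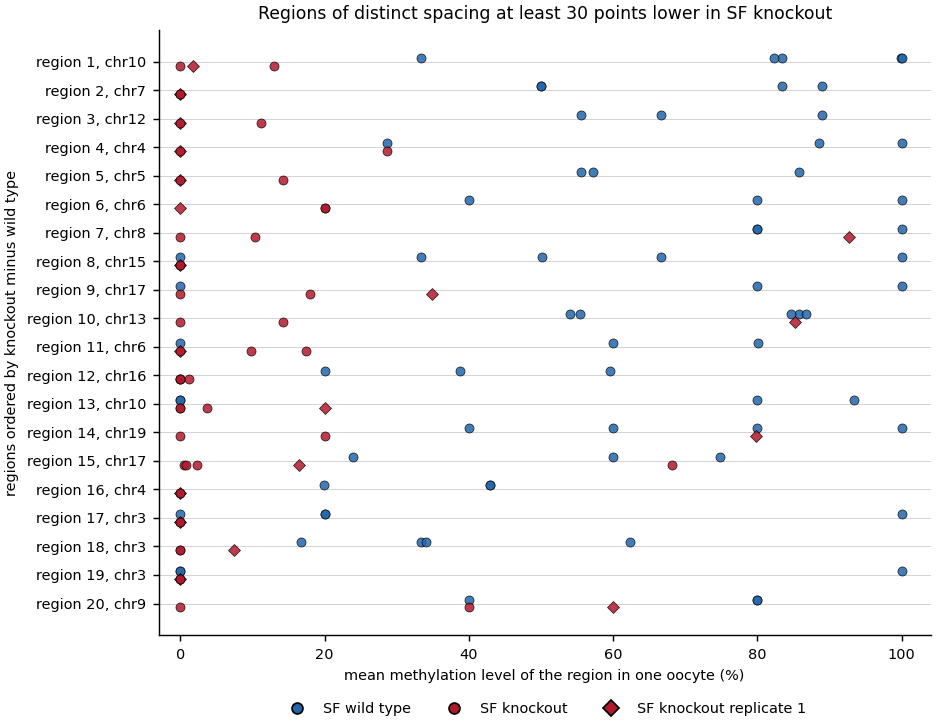
Mean methylation level (%) of each SF oocyte (points) in the 20 regions of distinct spacing outside chromosome 18 that were at least 30 points lower in the knockout, ordered by the difference; blue is wild type, red is knockout and diamonds are knockout replicate 1. Of the knockout values 57 of 65 lie at 20% or below, and replicate 1 lies near the wild-type values in the regions on chromosomes 8, 13 and 19.

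Among regions read in at least 4 oocytes of each group, the 6 lowest and 6 highest differences were named by rule. Of these 12, 10 were recurrent throughout, 1 was mixed and the Mknk2 region was distinct. The lower ones ran from -37.4 points at the Mknk2 region to -29.0 points at chr6:39876336-39876426. In the latter, wild-type replicates 1, 2, 4, 6 and 7 stood at 44.3%, 40.7%, 50%, 83.6% and 92%, and knockout replicates 1 to 5 at 30.5%, 16%, 39.3%, 52.1% and 27.7%. The others were chr1:132497165-132497278 (-34.3 points), chr3:78581011-78581094 (-33.0), chr1:132496545-132496643 (-32.6) and chr4:146594265-146594330 (-29.1), and all 6 had overlapping ranges.

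The 6 higher regions were chr5:152458396-152458467 (23.6 points), chr1:143087119-143087239 (23.3), chr7:138631897-138631968 (22.9), chr10:71287555-71287663 (22.8), chr3:157764583-157764676 (22.8) and chr13:33465666-33465759 (22.1). Only the region on chromosome 7 was without overlap. There wild-type replicates 1, 2, 4, 5 and 7 stood at 27.2%, 17%, 0%, 24% and 16.7%, and knockout replicates 1 to 5 at 54.9%, 35.6%, 32%, 32% and 44.8%. In EAF oocytes it stood at 0% to 13.7% in wild type and at 37.7% in the 1 knockout oocyte that read it.

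The recurrent spacings moved by group and not in 1 block. Spacing G3, with distances of 4, 11, 23 and 8 bp at 207 shared places on 19 chromosomes, gave the widest gap of the 10. Wild-type oocytes stood at 42.8% to 59.6%, knockout replicates 2 to 5 at 27.9% to 38.1%, and replicate 1 at 62.4%. The EAF oocytes separated there as well, at 54.2% to 71.4% in wild type and 33.0% and 44.2% in the knockout. In G1, with distances of 3, 37, 31 and 14 bp at 452 places, wild-type oocytes stood at 5.99% to 21.1% and knockout replicates 2 to 5 at 10.1% to 16.4%, while replicate 1 was at 34.8%. In G2, whose bases are shown above, the ranges were 31.2% to 46.8% and 27.9% to 32.5%, and replicate 1 was at 53.3%. Replicate 1 was the highest of the SF oocytes with a value in each of the 10 spacings. Wild-type replicate 3 had no value in G2, G5, G8 and G10, and wild-type replicate 4 none in G8 and G10.

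**Figure D5:**
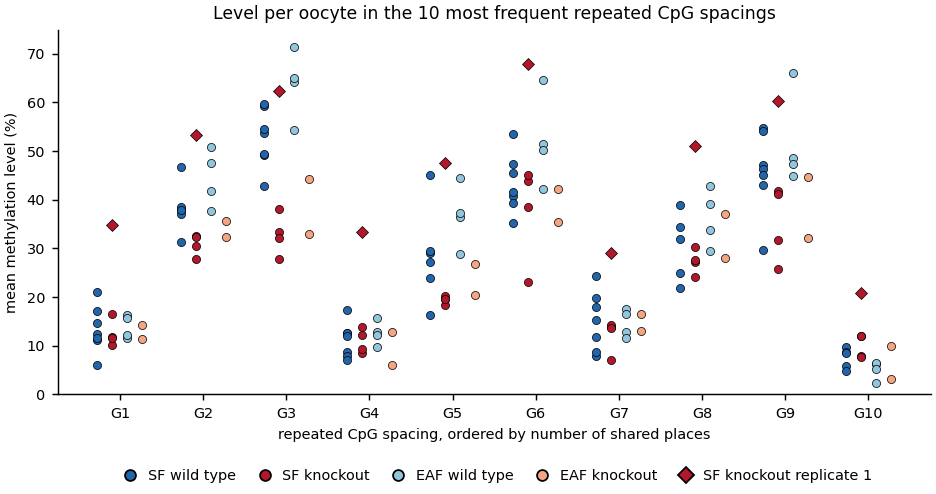
Mean methylation level (%) of each oocyte (points) in the 10 recurrent CpG spacings with the most shared places, G1 to G10; colours give stage and genotype and the diamond is SF knockout replicate 1. Replicate 1 is the highest SF oocyte with a value in each spacing. In G3 the other 4 knockout oocytes (27.9% to 38.1%) lie below all 7 SF wild-type oocytes (42.8% to 59.6%).

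The promoters that could be scored were almost unmethylated in both genotypes. Placing a promoter needed at least 8 listed CpGs within its 300 bases. CpG-poor promoters are thus left out, and the values do not describe promoters in general. Of the promoters placed on mm9, 103 of 98 genes were read in at least 3 oocytes of each SF group. Their mean level was 0.985% in wild type and 1.14% in the knockout, 99 had both means at 10% or below, and 40 were at 0% in every SF oocyte that read them. The differences ran from -8.33 points at the shared promoter of Rwdd2a and Pgm3, where only wild-type replicate 1 was above 0 (33.3%), to 19.4 points at LOC115487084, where knockout replicate 1 was at 60%.

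Lists of genes that bear on oocyte methylation were hardly covered. They hold 72 genes in 5 lists: DNA methylation machinery, histone demethylases and methyltransferases, oocyte growth genes, germline genes and maternally imprinted promoters. Of these, 20 promoters could be placed, 6 had a value in both SF groups, and 0 were read in 3 oocytes of each. The promoter placed for Dnmt1, the maintenance methyltransferase, stood at 7.33%, 11.1% and 11.1% in wild-type replicates 1, 2 and 6 and at 0% in knockout replicates 2 and 5. Mcts2, an imprinted retrogene whose promoter is methylated in the egg, stood at 37.5% in wild-type replicate 2 and at 0% in knockout replicates 1, 4 and 5. An EAF wild-type oocyte was at 100% there. The promoters of Tet2, Uhrf1, Slc25a31 and Dazl were at 0% in each SF oocyte that read them.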

How the data were processed

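Per the labels' protocols, MspI-cut DNA of 1 oocyte was bisulfite converted and amplified. Build mm9 and the tool BSMAP 2.89 are listed in the submitters' processing notes. For each CpG the deposited tables hold total and methylated read counts and the methylated fraction, per the file headers. For filters before deposit, and for reads with several matches, the procedure is not given in the sources used here. PCR copies are not independent molecules.

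From the counts, levels (percent) were computed at CpGs with at least 5 reads, and compared at CpGs read in at least 3 oocytes of each SF group, each CpG weighted equally. Regions, classes and calls follow the limits given with them. No animal is named, so no test was run. The regions named by rule were the 6 lowest and 6 highest differences with at least 4 oocytes of each group, chromosome 18 left out. Promoters were placed on mm9 by matching at least 8 CpG positions of the RefSeq sequence to listed CpGs, without converting coordinates, and 99.7% of those placed had a neighbour with the same shift. The oocytes, limits and gene lists were chosen with earlier results of these data known, and the split by CpG spacing was added after the data were seen. The code for the calls and the spacing rule was tested on simulated data. The simulated reads were independent and the oocytes of a group had the same level at a CpG. That test therefore cannot tell how often such calls arise from the spread among real oocytes. The 12 SF libraries were compared in pairs, and at CpGs with at least 20 reads in both, at most 1.82% had the same counts. Alternatives are given in the closing section. Scripts ran under Python 3.11.15 with pandas 2.3.3, numpy 2.4.6 and matplotlib 3.10.9.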

Additional observations from a re-analysis of the deposited data

Results flagged for a closer look

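SF knockout replicate 1 lay far from the remaining 4 oocytes of its group in 6 of 18 group values examined this way. Chance flags about 1 in 20 groups, but the 6 values share CpGs and come from 1 oocyte, so they are not 6 separate flags. Its mean level was 37.1% over all shared CpGs, 44.2% at recurrent ones and 7.06% at distinct ones. At CpGs low in wild type it stood at 21.5% over all, 28.1% at recurrent and 4.48% at distinct CpGs. Its values at CpGs high in wild type did not stand apart in this way.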

How the results depend on the processing

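The knockout was lower at CpGs high in wild type under every setting run but 1, with the size changing. Leaving out 1 oocyte at a time gave -13.2 to -6.12 points over all shared CpGs and -45.1 to -21.0 points at distinct ones. Over all it was -28.0 points with at least 2 oocytes of each group, -4.36 with at least 4 and -6.40 on CpGs read in all 12 SF oocytes, against -11.4. At distinct CpGs it was -52.2, -16.9 (7 CpGs) and 0 points (1 CpG, at 100% in each oocyte), against -37.5. In these settings a wild-type oocyte was scored at CpGs classed by the others, so the genotypes could be scored on different CpGs.

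The difference over all shared CpGs and the one at low CpGs had no stable sign. The first ran from -5.36 to 0.082 points with 1 oocyte left out (above 0 without SF knockout replicate 3), and was 1.20 points on the 2553 CpGs read in all 12 SF oocytes and 0.18 points with CpGs weighted by reads. The second ran from -1.43 (without SF knockout replicate 1) to 2.57 points, and was -0.32 points with at least 2 oocytes of each group. At distinct low CpGs it ran from 0.26 to 1.12 points with CpGs chosen again each time, and was -0.20 points with at least 2 oocytes of each group, 2.71 with at least 4, 5.36 on CpGs read in all 12, and 2.53 with classes from EAF wild type.

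Replicate numbers did not pair the oocytes. Deviations of same-numbered SF oocytes correlated at -0.01 to 0.18 across CpGs, above 0.1 in 1 of 5. With the numbers as a block the overall difference was 0.65 points, and 154 CpGs instead of 68 were higher.

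Counts of calls moved with the reads and oocytes required, and so did the share called: 5.21% of CpGs were lower with at least 2 oocytes of each group and 0.144% with at least 4, against 1.27%. In the order all lower CpGs, all higher CpGs, lower regions, higher regions, distinct lower CpGs and distinct higher CpGs, they were 571, 151, 97, 28, 239 and 34 at a minimum of 3 reads. At 10 reads they were 82, 16, 16, 6, 36 and 3. With at least 2 oocytes of each group they were 2918, 929, 282, 88, 1671 and 380, with at least 4 oocytes 18, 6, 3, 0, 7 and 0, and on CpGs read in all 12 oocytes 0 throughout. With 1 oocyte left out they ran from 132 to 267, 30 to 70, 19 to 42, 5 to 16, 40 to 126 and 4 to 10. A limit of 30 points gave 851 lower and 410 higher CpGs, and 253 and 80 distinct ones. Asking also for no overlap gave 113 and 27, and 47 and 3. A limit of 20 points gave 93 lower and 49 higher regions. Without SF wild-type replicates 3 and 7, the 2 shallowest libraries, 39 CpGs, 10 regions and 6 distinct CpGs were higher. Added after the data were seen, recurrent CpGs alone gave 108 lower CpGs and 20 lower regions, and distinct CpGs alone 122 lower and 12 higher CpGs and 21 lower and 2 higher regions.

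The shallowest library, wild-type replicate 3, was read at 5299 shared CpGs and also had the lowest mean level of the 12 SF oocytes (11.1%). Set against the other wild-type oocytes at the same CpGs it stood at -6.11 points, and SF knockout replicate 3 was lower, at -7.72 points. Whether the level of wild-type replicate 3 follows from its depth was not tested. SDs describe oocytes, not animals.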
